A study of Mus musculus with 12 samples.

Results

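Eomes, Dll3, Btg2, Insm1, and Gadd45g are known from the cerebral cortex as genes of the intermediate progenitors, and their loci were followed here through the neurogenic lineage. All peaks whose nearest TSS belonged to one of these 5 genes were taken, which gave 24 of 55085 5mC peaks and 30 of 47478 5hmC peaks, and each of the 5 genes had peaks of both marks. The cells came from the cortex of E14.5 mouse embryos, double heterozygous for the Btg2RFP and Tubb3GFP reporters, and were sorted into proliferating progenitors (PP, negative for both), differentiative progenitors (DP, RFP+/GFP-), and neurons (GFP+, irrespective of RFP). For each cell type and each mark the series lists an immunoprecipitated and an input sample, 12 in all. In (h)MeDIP, fragments that carry 5mC or 5hmC are enriched with an antibody, and the cell types were barcoded and pooled ahead of this step, so that they shared a pull-down of each mark. Since DP are defined by the Btg2 reporter, the expression of Btg2 in DP follows from the definition and is given as a description only.

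In the developing cortex, radial glia divide in the ventricular zone and give rise to intermediate progenitors, most of which divide once more to produce neurons. Eomes (Tbr2) is the T-box transcription factor by which intermediate progenitors are recognized, and Insm1 is a zinc finger factor that promotes their generation. Dll3 is a divergent Notch ligand that acts within the producing cell, Btg2 (Tis21) is an antiproliferative gene switched on before a neurogenic division, and Gadd45g encodes a stress-inducible protein of a family that has been linked to active demethylation. 5mC is oxidized to 5hmC by Tet enzymes, and 5hmC can be a step in the removal of the methyl group as well as a stable mark in neurons.

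The deposited level of a peak is log2 of its normalized reads, given as the authors' mean for each cell type, and the marks come from separate pull-downs, so that levels were compared within a mark only. No values per replicate were used, and therefore no error and no test can be given for any difference below. Differences are the later minus the earlier cell type on the log2 scale, less the median difference of all peaks of that mark, and a peak was counted as higher or lower when the difference was at least 1.5-fold. This median was -0.18 in 5mC from DP to neurons and -0.17 from PP to neurons, -0.081 in 5hmC from PP to neurons, and within 0.03 of 0 in the other steps. The number of reads per sample is unknown from the tables. The authors built the set of peaks from calls made in each cell type. A peak low in a single cell type may thus have entered only where it is high, which by itself favours a difference. In which cell type a peak was called was not examined.

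The expression columns, taken by the authors from an earlier RNA-seq study, describe the cell types of that study and not the cells used for (h)MeDIP here. Of 10 markers of PP, 9 had a value and all 9 were highest in PP, with expression summing to 297998 (PP), 164598 (DP), and 15890 (neurons). Of 10 neuron markers, 8 had a value and all 8 were highest in neurons, with sums of 11664, 103445, and 440716. RNA of neuron genes was thus present in DP of that study, and its part in the values of DP was not tested. In such bulk values, fewer cells of a type and less RNA per cell cannot be told apart. The 4 interneuron markers with a value summed to 971, 3616, and 10576, and endothelial (5 genes), microglial (4 genes), and oligodendrocyte lineage markers (4 genes) each summed to no more than 678 in any cell type, with none at 0.

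All 5 genes were expressed most in DP. Eomes had a value of 10188 (PP), 50497 (DP), and 3626 (neurons), and on the log2(value + 1) scale DP differed from PP by 2.31 and neurons from DP by -3.80. The values of the other genes are given in the same order. Dll3 had 281, 1689, and 901 (2.58 and -0.91). Gadd45g had 3512, 13937, and 4299.6 (1.99 and -1.70). In these 3 genes DP stood at least 3.97-fold above PP, and in neurons Dll3 was still 1.68 above its value in PP on this scale. Insm1 had 5905, 14633, and 8638 (1.31 and -0.76). Btg2, whose reporter defined DP, had 19335, 38556, and 7484 (0.996 and -2.36). Over all 16293 genes with a peak, 18.6% had their highest expression in DP, 7.99% were at least 2-fold higher in DP than in PP (4 of the 5 genes, Btg2 being just below), and 18.0% were at least 2-fold lower in neurons than in DP (3 of the 5, namely Eomes, Btg2, and Gadd45g). The scale of these values is not named, and they were not compared between genes.

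**Figure D1:**
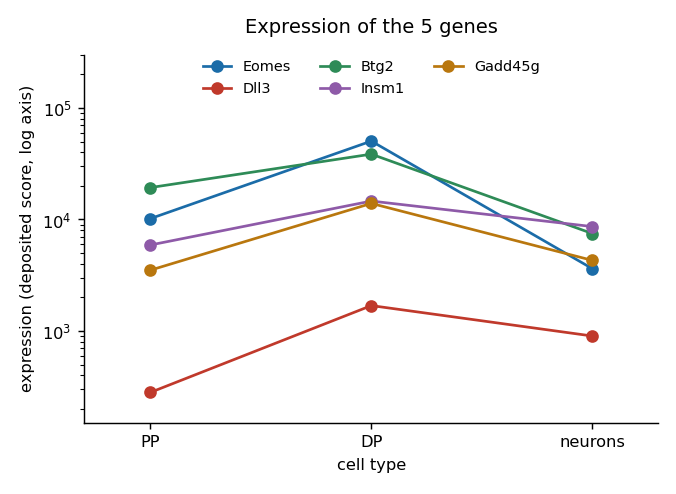
Deposited expression of Eomes, Dll3, Btg2, Insm1, and Gadd45g in PP, DP, and neurons on a log axis, with 1 value per gene and cell type and no error. All 5 lines have their highest point in DP, and Eomes drops most from DP to neurons.

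The sequence just upstream of the start is shown for the genes because it carried no peak of either mark, so that every value below stems from DNA outside it. These are the 250 bases before the RefSeq start in GRCm38.p6 (mm10), except that the window of Eomes ends at 118478188, just past the gene start at 118478186. Such a window was available for 4 of the 5 genes, Insm1 being the exception. They are given 5′ to 3′ on the strand of the gene, and capitals mark CG dinucleotides, the main site of cytosine methylation.
Eomes: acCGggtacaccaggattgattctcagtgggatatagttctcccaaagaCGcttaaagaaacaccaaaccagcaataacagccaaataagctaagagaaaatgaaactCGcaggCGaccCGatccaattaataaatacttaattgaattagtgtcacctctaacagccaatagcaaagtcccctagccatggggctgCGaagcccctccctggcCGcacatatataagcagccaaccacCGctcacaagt
Dll3: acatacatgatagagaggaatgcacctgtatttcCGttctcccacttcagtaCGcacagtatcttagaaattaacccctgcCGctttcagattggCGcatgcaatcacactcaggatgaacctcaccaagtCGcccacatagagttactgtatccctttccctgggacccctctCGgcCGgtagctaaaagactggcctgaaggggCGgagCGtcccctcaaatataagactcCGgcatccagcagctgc
Btg2: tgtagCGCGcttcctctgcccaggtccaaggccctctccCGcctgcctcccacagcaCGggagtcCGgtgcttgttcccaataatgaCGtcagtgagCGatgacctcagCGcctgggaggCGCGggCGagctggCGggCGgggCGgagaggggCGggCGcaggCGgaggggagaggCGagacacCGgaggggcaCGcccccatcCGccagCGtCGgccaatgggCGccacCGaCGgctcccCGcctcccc
Gadd45g: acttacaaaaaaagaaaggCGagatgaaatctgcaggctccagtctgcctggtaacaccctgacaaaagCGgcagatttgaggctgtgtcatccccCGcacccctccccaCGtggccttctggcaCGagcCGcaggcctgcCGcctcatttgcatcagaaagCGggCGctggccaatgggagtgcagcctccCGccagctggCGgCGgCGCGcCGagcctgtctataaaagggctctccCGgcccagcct
The windows are chr9:118477939-118478188 (plus strand) for Eomes, chr7:28301786-28302035 (minus) for Dll3, chr1:134079156-134079405 (minus) for Btg2, and chr13:51846425-51846674 (plus) for Gadd45g. They held 8 CG for Eomes, 10 for Dll3, 27 for Btg2, and 16 for Gadd45g, against a median of 6 in 32851 such windows, and that of Btg2 stood above 91.9% of them. The E-box CANNTG (N for any base, a palindrome and thus the same on both strands), the motif bound by bHLH factors, occurred in 2 copies for Dll3 and in 3 for Gadd45g. It was not found in the windows of Eomes and Btg2, and 66.2% of all windows held at least 1 copy. Peaks were rare at starts in general, with 0.944% of all windows overlapping a 5mC peak and 1.12% a 5hmC peak. The nearest peak of either mark lay 225 bp from the window for Btg2, 1262 bp for Dll3, 3240 bp for Gadd45g, and 4718 bp for Eomes.

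Among the peaks that passed 1.5-fold, more 5hmC peaks were higher than lower and more 5mC peaks were lower than higher in neurons than in PP, while 16 5hmC peaks (of 30) and 15 5mC peaks (of 24) stayed within it. From PP to DP, 10 of 30 5hmC peaks were higher and 0 lower, where 11.2% and 4.68% of all 5hmC peaks were. From DP to neurons, 10 were higher and 1 lower (16.5% and 7.07% of all peaks), and from PP to neurons 13 were higher and 1 lower (22.1% and 7.71%). Of the 24 5mC peaks, 6 were lower and 2 higher from PP to DP (5.44% and 4.60% of all 5mC peaks). From DP to neurons, 5 were lower and 1 higher (9.36% and 5.12%), and from PP to neurons 8 were lower and 1 higher (10.2% and 5.00%). The median difference of the peaks from PP to neurons was 0.49 in 5hmC and -0.49 in 5mC, where the median of all peaks is 0 by construction.

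Much of this rested on Btg2, to which 11 5hmC peaks (of 30) and 7 5mC peaks (of 24) belonged. Without Btg2, 5 of 19 5hmC peaks (26.3%) were higher from PP to neurons, close to the 22.1% of all peaks, and their median difference was 0.0033. From PP to DP there were likewise 5 of 19 (26.3%), against 11.2% of all peaks. Those of Eomes and Dll3 among them had only 3.97, 3.13, and 1.98 normalized reads in PP, and that of Insm1 lies inside another gene. For 5mC, 5 of 17 peaks (29.4%) were lower from PP to neurons without Btg2, against 10.2%, with a median of -0.48. All 5 were weak peaks, with a mean level at or below the 22.5th percentile of all 5mC peaks. From PP to DP 2 of 17 were lower and 2 higher (11.8% each), against 5.44% and 4.60%.

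Whereas expression was highest in DP, the level of most peaks was not, and the same held among all peaks of the tables. On the centred scale, 19 of the 30 5hmC peaks were highest in neurons (41.4% of all 5hmC peaks), 6 in DP (23.2%), and 5 in PP (35.4%), whereas 14 of the 24 5mC peaks were highest in PP (33.2% of all 5mC peaks), 4 in DP (31.9%), and 6 in neurons (34.9%). With the levels as deposited, 15 of the 30 5hmC peaks were highest in neurons (35.6% of all), 7 in DP (25.7%), and 8 in PP (38.7%). The deposited 5mC levels were highest in PP for 17 of the 24 peaks (42.6%), in DP for 5 (41.1%), and in neurons for 2 (16.3%). 5hmC increased at both steps in 15 of 30 peaks (24.8% of all), and 5mC decreased at both steps in 11 of 24 (18.8%), however small the step. Of the 15 5hmC peaks with such an increase, 9 belonged to Btg2. Without Btg2, 9 of 19 5hmC peaks (47.4%) were highest in neurons on the centred scale, near the 41.4% of all. For 5mC, 9 of 17 (52.9%) were then highest in PP, against 33.2%.

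**Figure D2:**
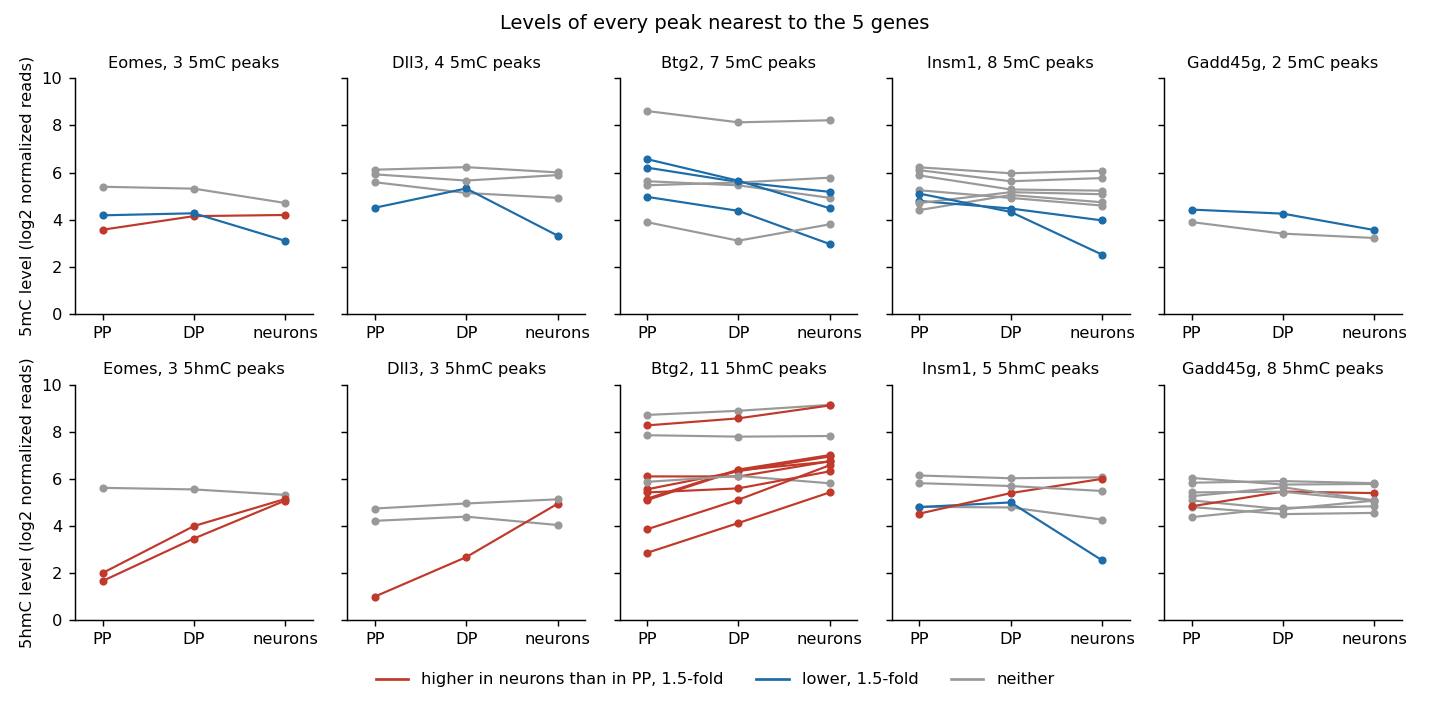
Level of each of the 24 5mC peaks (top) and 30 5hmC peaks (bottom) in PP, DP, and neurons, 1 line per peak, in log2 normalized reads (authors' means, no error). Red lines were at least 1.5-fold higher and blue lines at least 1.5-fold lower in neurons than in PP after centring, and 8 of the 13 red lines in 5hmC are those of Btg2.

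Eomes (chr9:118478186-118486132) had 3 peaks of each mark. Inside the gene, 5567 bp from its TSS, the 5hmC peak at chr9:118483712-118483847 had a level of 1.99 (PP), 3.99 (DP), and 5.14 (neurons). The next one, at chr9:118484312-118484464 and 6175 bp from the TSS, had 1.65, 3.46, and 5.07. Both were thus low in PP and higher at each step, the former by 2.00 and then 1.17 and the latter by 1.81 and then 1.64. Levels of 1.99 and 1.65 correspond to 3.97 and 3.13 normalized reads, so that the size of the gain from PP rests on few reads. The other 5hmC peak, at 4951 bp, had 5.61, 5.54, and 5.31 and differed by no more than 0.22 at any step.

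In 5mC, the peak at chr9:118484329-118484538, which overlapped the latter of the gaining 5hmC peaks by 135 bp, had 4.18, 4.27, and 3.10. Hence 5mC differed by 0.09 from PP to DP, where 5hmC was already higher, and by -0.996 in the following step. A 5mC peak 7029 bp from the TSS had 5.39, 5.31, and 4.704 and stayed within 1.5-fold. The upstream 5mC peak, 5067 bp from the TSS and within the lncRNA Gm33408, went the other way with 3.57, 4.15, and 4.20 (0.80 from PP to neurons) and was the only one of the 24 5mC peaks counted as higher in neurons than in PP. Its difference of 0.583 from PP to DP lay just under the minimum of 0.585 on the log2 scale. RefSeq places the end of Gm33408 beyond the start of Eomes, and whether the RNA-seq separated the overlapping genes is not stated.

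Dll3 (chr7:28293555-28301785) had 4 5mC and 3 5hmC peaks. The 5hmC peak at chr7:28300273-28300418, within the gene at a distance of 1892 bp, had a level of 0.986 (PP), 2.66 (DP), and 4.93 (neurons). Its difference of 4.03 from PP to neurons was the largest of all 54 peaks, and the level in PP corresponds to 1.98 normalized reads. This 5hmC peak, like the gaining ones of Eomes, may have been called only where it is high, and its gain is a description. The 5mC peak at chr7:28300287-28300453, which shares 131 bp with it, had 4.50, 5.32, and 3.32. There 5mC was higher by 0.82 in DP and then lower by 1.83 in neurons, so that both marks were higher in DP than in PP. The remaining 5hmC peaks had 4.73, 4.95, and 5.12 (1189 bp upstream) and 4.21, 4.39, and 4.03 (inside) and were not counted in any step. The remaining 5mC peaks, 1 inside the gene and a pair upstream, of which the farther lies in Timm50, differed by no more than 0.49 from PP to neurons. The distances are those of the authors, whose TSS for Dll3 lies upstream of the RefSeq start.

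Among the receptors, ligands, and targets of the Notch pathway, to which Dll3 belongs, 14 of 48 5hmC peaks (29.2%) were higher and 6 (12.5%) lower from PP to neurons, against 22.1% and 7.71% of all peaks. Of the 37 5mC peaks, 4 (10.8%) were lower and 1 (2.70%) higher, against 10.2% and 5.00%.

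Btg2 (chr1:134074865-134079155) had the most 5hmC peaks of the 5 genes, 11, and 7 5mC peaks. Its upstream 5hmC peaks at chr1:134083227-134083389 and chr1:134093840-134093983 were the 3rd and 4th highest of all 47478 5hmC peaks by mean level, the former with 8.71, 8.89, and 9.14 (PP, DP, and neurons) and the latter with 8.26, 8.56, and 9.11. Each lies within a lncRNA in RefSeq, Gm31974 and Gm32039, respectively. The 5mC peak 254 bp from the TSS, with 8.61, 8.13, and 8.22, was the 53rd highest of all 55085 5mC peaks. The highest levels among the 5 genes thus lay at this locus for both marks, and the differences of these 3 peaks from PP to neurons were 0.51, 0.93, and -0.22. All embryos carried the Btg2RFP reporter, and whether it affects the signal at this locus was not tested, since input signal was not analysed.

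The largest 5hmC differences of Btg2 were at peaks of lower level. The peak at chr1:134086897-134087106, 7882 bp upstream, had 3.85, 5.10, and 6.57 (1.26 and 1.49). The downstream peak at chr1:134060152-134060336, 18.9 kb from the TSS, had 2.85, 4.12, and 5.42 (1.27 and 1.32). At both, each step added a similar amount. Those at chr1:134072996-134073128, 6058 bp downstream, and chr1:134075745-134075880, inside the gene, gained mostly from PP to DP, with 5.09, 6.36, and 6.73 and with 5.15, 6.39, and 7.00, respectively. A downstream peak at 7860 bp had 5.55, 6.32, and 6.94. The peaks 862 bp inside and 1552 bp upstream had 6.10, 6.09, and 6.74 and 5.41, 5.59, and 6.31, respectively, and of the single steps were higher in that from DP to neurons. In total, 8 of the 11 peaks were higher in neurons than in PP and 5 were already higher in DP, and none was lower in any step. The other 3 peaks not counted from PP to neurons, at 13292 bp downstream, 1387 bp upstream, and the one of 3rd rank, differed by 0.05, 0.02, and 0.51.

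In 5mC, 3 of the 7 peaks of Btg2 were lower from PP to neurons. The peak at chr1:134093767-134093930, 14.7 kb upstream, had 6.57, 5.65, and 4.48, a loss of similar size in each step (-0.92 and -0.99). The one at chr1:134083903-134084023, 4843 bp upstream, had 4.97, 4.37, and 2.96 (-0.59 and -1.24). Inside the gene, the peak at chr1:134075726-134075872 had 6.21, 5.596, and 5.18 (-0.61 and -0.24). At all 3 peaks, 5mC was already lower in DP by at least 1.5-fold. The peak 8278 bp upstream, with 3.89, 3.10, and 3.798, was lower in DP and higher again in neurons, and that 5970 bp upstream, with 5.46, 5.58, and 5.78, was the only one of the 7 to increase at both steps. The peak at the 3′ end of the gene had 5.63, 5.45, and 4.92 and fell just short of 1.5-fold from PP to neurons (-0.54).

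Insm1 (chr2:146221997-146225020) had 8 5mC and 5 5hmC peaks, all upstream. All 8 5mC peaks and 4 of the 5 5hmC peaks lie inside the neighbouring gene Cfap61 (chr2:145934757-146215035), a gene of cilia and flagella, so that they are assigned to Insm1 by its TSS alone. The 5mC peak at chr2:146174208-146174342, 47.6 kb upstream, had 5.11, 4.33, and 2.51, and its difference of -2.42 was the largest loss of 5mC among the 24 peaks. Its level in neurons corresponds to 5.69 normalized reads, so that the size of the loss rests on few reads. The 5hmC peak at chr2:146183915-146184219, 37.9 kb upstream, had 4.79, 4.99, and 2.53 and was the only one of the 30 5hmC peaks counted as lower (-2.44 from DP to neurons). There the level in neurons corresponds to 5.77 normalized reads. A 5hmC peak 30.5 kb upstream, at chr2:146191279-146191516, went the opposite way with 4.51, 5.39, and 5.99 (1.56 from PP to neurons). Within a stretch of Cfap61 of less than 20 kb, 1 peak was hence lower in 5mC, 1 lower in 5hmC, and 1 higher in 5hmC. The 5mC peak 138.8 kb upstream, with 4.40, 5.04, and 4.74, was higher in DP, and that 25.2 kb upstream, with 5.88, 5.28, and 5.23, was lower in DP. Of the other 5 5mC peaks, the one at 123.6 kb was lower in neurons than in PP, and the remaining 4 differed by -0.48 to 0.55. The 5hmC peak 108.9 kb upstream had 4.80, 4.78, and 4.26. The only peak between Cfap61 and Insm1, a 5hmC peak at 4144 bp, had 5.81, 5.69, and 5.48.

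Gadd45g (chr13:51846675-51848475) had 2 5mC and 8 5hmC peaks, none of them inside the gene. The 5mC peak at chr13:51857521-51857662, 10.9 kb downstream, had 4.42, 4.25, and 3.55 (-0.70 from PP to neurons), and that 29.7 kb downstream had 3.89, 3.40, and 3.22 (-0.51). The 5hmC peak at chr13:51885746-51885977, 39.2 kb downstream, had 4.82, 5.45, and 5.39, and it was the only one of the 8 counted as higher, by 0.63 from PP to DP. The nearest 5hmC peak, 3313 bp from the TSS, had 4.36, 4.76, and 4.83. The other 6 5hmC peaks differed by no more than 0.38 from PP to DP and by no more than 0.27 from PP to neurons.

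Levels of both marks at one place could be read where a 5mC and a 5hmC peak overlapped by at least 1 bp, at 5 places. Relative to all peaks, 4 of these 5 pairs had lower 5mC together with higher 5hmC in neurons than in PP, as did 18.8% of the 6727 overlapping pairs in the tables. The authors had already named Eomes and Dll3, from these same data, among genes near loci that lose 5mC and gain 5hmC. The count is therefore a description and not an independent excess over all pairs. In addition, the 5hmC peaks of the pairs at Eomes and Dll3 were low in PP and may have been called only in later cell types. The 4 pairs were the ones inside Eomes, Dll3, and Btg2 and the one 14.7 kb upstream of Btg2. At the latter, 5mC differed by -1.92 and 5hmC by 0.93, and inside Btg2 the values were -0.86 and 1.94. In the fifth pair, 123.6 kb upstream of Insm1 and inside Cfap61, 5mC was lower by 0.66, with 4.79, 4.47, and 3.97, and 5hmC was level with 6.14, 6.02, and 6.06. The pairs differed in what DP held. At Eomes and Dll3, 5hmC was higher in DP by 1.81 and 1.68 with no lower 5mC, whereas at both pairs of Btg2 5mC was already lower in DP, by 0.61 inside the gene and 0.92 upstream.

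**Figure D3:**
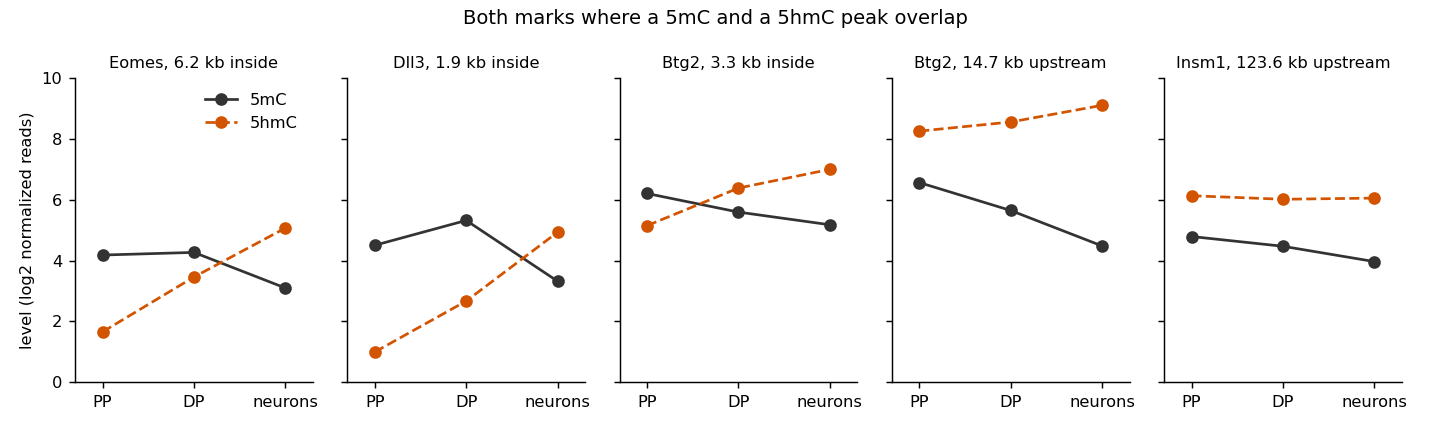
Level of 5mC (solid, dark) and 5hmC (dashed, orange) in PP, DP, and neurons at the 5 places where peaks of both marks overlap, in log2 normalized reads, with the distance from the TSS above each panel (authors' means, no error). 5hmC climbs and 5mC drops from PP to neurons in the first 4 panels, and in that of Insm1 5hmC stays between 6.02 and 6.14.

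The position of the peaks was then compared, a division made after the values were seen. All 9 5mC peaks inside or downstream of the genes had a difference below 0 from PP to neurons, between -1.01 and -0.22, whereas 50.6% of all 5mC peaks in these positions were below 0. Upstream, 7 of 15 were below 0 (49.2% of all upstream 5mC peaks), and the differences ranged from -2.42 to 0.80. At 1.5-fold, 4 of the 9 and 4 of the 15 upstream peaks were lower (10.2% of all 5mC peaks), and the largest loss lay upstream. Of these 15 peaks, 8 are those of Insm1, which had no 5mC peak inside or downstream, so that position and gene were not set apart here. For 5hmC, 11 of the 19 peaks within 20 kb of the TSS were higher from PP to neurons (21.7% of all peaks within this distance), against 2 of 11 farther away (22.3%). The 19 near peaks include all 11 of Btg2.

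**Figure D4:**
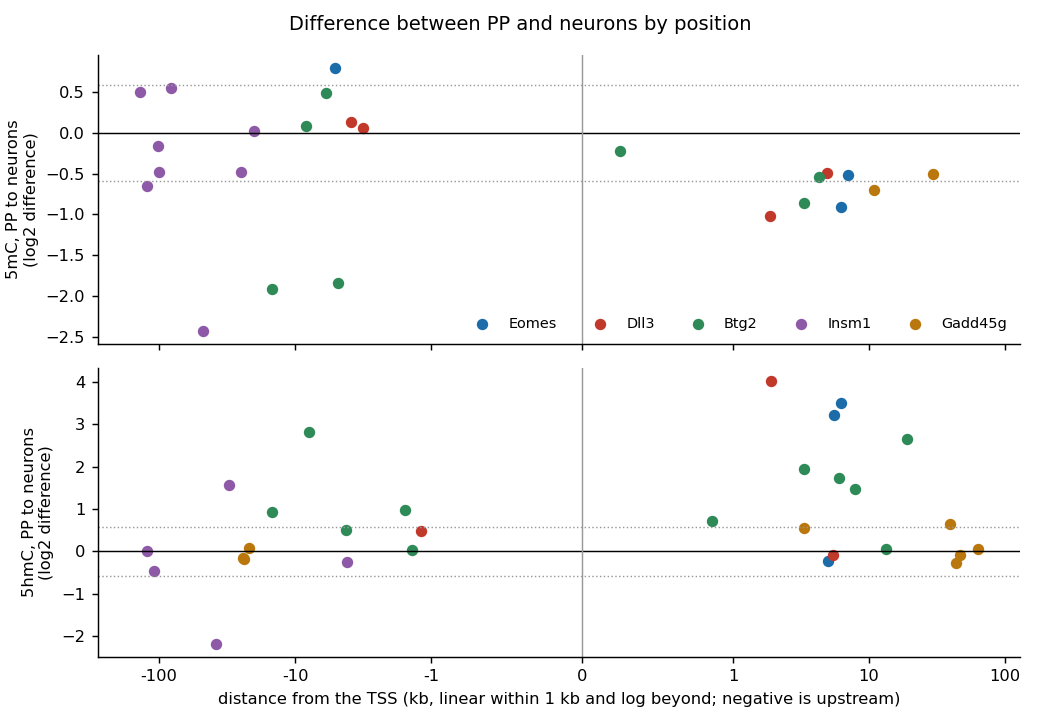
Log2 difference from PP to neurons, less the median of all peaks, of each 5mC (top) and 5hmC (bottom) peak against its distance from the TSS in kb (linear within 1 kb and log beyond, upstream negative), coloured by gene, with dotted lines at 1.5-fold. The 9 5mC points to the right of the TSS all lie below 0, and the highest 5hmC points, of Dll3 and Eomes, lie inside the genes.

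Other genes known from intermediate progenitors were examined in the same way, from a list of 14 of which 12 had a peak. Of these, 11 were expressed most in DP and 11 were at least 2-fold higher in DP than in PP, with a median difference of 2.15. The 4 with the largest difference were Nhlh1 (4.02), Neurod4 (3.96), both bHLH factors, Sstr2 (3.70), a somatostatin receptor, and Rnd2 (3.01), a GTPase acting in neuronal migration. Of their 42 5hmC peaks, 19 (45.2%) were higher from PP to neurons and 3 (7.14%) lower, against 22.1% and 7.71% of all peaks. Of their 22 5mC peaks, 5 (22.7%) were lower and 0 higher, against 10.2% and 5.00%. Of the 10 5hmC peaks of Sstr2, 8 were higher from PP to neurons, against 8 of 11 at Btg2, whereas of the 9 of Nhlh1 2 were higher and 2 lower. From PP to DP, 11 of the 42 (26.2%) were higher and 1 (2.38%) lower, against 11.2% and 4.68%. In the neurogenic bHLH factors, a list that overlaps the former, 7 of 31 5hmC peaks (22.6%) were higher and 4 (12.9%) lower from PP to neurons, against 22.1% and 7.71% of all peaks, and 4 of 12 5mC peaks (33.3%) were lower and 0 higher, against 10.2% and 5.00%.

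Of all genes, 1.88% were at least 2-fold higher in DP than in PP and at least 1.5-fold lower in neurons than in DP, 4 of the 5 genes and 303 others. The others had 1233 5hmC peaks, from 266 genes, of which 27.6% were higher from PP to neurons (22.1% of all) and 22.2% were highest in DP (23.2% of all). Of the 1168 5mC peaks of these others, from 269 genes, 13.6% were lower from PP to neurons (10.2% of all).

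By the distance between log2(value + 1) in the 3 cell types, each gene centred on its mean, the genes most like Eomes among 10745 genes were Glis3 (distance of 0.079), Sp5 (0.22), and Wnt2b (0.32). For Dll3 these were Gm16758 (0.094), Itga4 (0.11), and Plcd1 (0.14). For Btg2 they were Alpk1 (0.063), Sulf1 (0.080), and Sema3e (0.11). For Insm1 they were Tmem2 (0.014), Srxn1 (0.054), and Col9a2 (0.12), and for Gadd45g Lynx1 (0.17), Abcd2 (0.22), and Stat3 (0.32). A likeness over 3 values is a description of these columns alone.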

How the data were processed

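The 12 samples of the series, 6 IP and 6 input, are not given individually in the 2 tables, which hold means for each cell type. The authors used BWA for alignment (mm10) and SICER for peak calling. For each cell type they kept the peaks shared by its replicates and merged these into a reference set. Peaks overlapping repeats were excluded, and levels were computed with DiffBind. The deposited levels are log2 of TMM-normalized reads, pooled by the authors over replicates. The deposited expression is a score of unnamed scale from their earlier RNA-seq, and the deposited distance to the TSS is a score in bp. Further columns hold the authors' own log2 folds and p-values between cell types for both marks and expression, and these were not used. The depth per sample is unknown from the tables, and the number of peaks limits only what is counted.

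No peak was filtered. Differences of levels were centred on the median of all peaks of the mark and counted at 1.5-fold, and expression was compared as log2(value + 1). Likeness was computed among genes with a mean expression of at least 100. Named genes were the 5 genes with all their peaks, the 3 most alike to each, and from each list up to 4 with the largest difference from PP to DP. The genes and lists were chosen with earlier results of these data known. Upstream sequences and gene positions came from RefSeq (GRCm38.p6), and 4 of 5 genes had a sequence. Steps were tested on simulated data, and python 3.11.15, pandas 2.3.3, numpy 2.4.6, and matplotlib 3.10.9 were used. Alternatives were differences without centring, other folds, a minimum level, other distances, other overlaps, and other pseudocounts. Peak sequences, input signal, and values per replicate were not analysed here.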

Additional observations from a re-analysis of the deposited data

How the results depend on the processing

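With another centring, fold, level, or distance, the counts are of the peaks of the 5 genes alone. The share of all peaks can change with these settings as well and is not given, so the counts were not set against it. The level and distance limits also leave fewer peaks of the 5 genes to count. Without centring, 14 5mC peaks were lower from PP to neurons in place of 8, and the other counts stayed within 1.5 times. With a minimum of 2-fold, 5mC peaks higher and lower were 0 and 0 in the step to DP, 0 and 3 from DP to neurons, and 0 and 4 from PP to neurons, and 5hmC peaks higher from DP to neurons were 5. With a looser minimum of 0.322 on the log2 scale, the 5mC counts were 4 and 11, 3 and 9, and 4 and 14 in the same order, and 5hmC peaks lower were 1, 5, and 2 in the 3 steps. Among peaks at or above the median level of their mark, 5mC peaks higher and lower were 0 and 3, 0 and 1, and 0 and 2. There, 5hmC peaks higher were 6 in each single step, and those lower from DP to neurons and from PP to neurons were 0. Within 50 kb of the TSS, 1 5mC peak was higher from PP to DP. Within 10 kb or inside the genes, 1 5mC peak was higher and 3 were lower from PP to DP, 3 were lower from DP to neurons and 4 from PP to neurons, and 0 5hmC peaks were lower in the latter steps. Without the peaks of Btg2, an alternative chosen after seeing the data, 5mC peaks lower were 2, 3, and 5 in the 3 steps, those higher from DP to neurons were 0, and 5hmC peaks higher were 5, 4, and 5. Without Btg2 the shares were lower as well, with 26.3% of 5hmC peaks higher from PP to neurons in place of 43.3% and 11.8% of 5mC peaks lower from PP to DP in place of 25%. The cause of these shifts was not tested. The 5 overlapping pairs remained 5 at an overlap of 50% of the shorter peak and became 6 with centres within 500 bp, and 4 genes were at least 2-fold higher in DP with a pseudocount of 0.1, 1, or 10. Of 98 values recomputed under an alternative, most of them counts, 43 moved (counts by over 1.5 times) and 55 did not.

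No paired analysis was possible because the tables hold 1 mean per cell type, and no replicate was left out for the same reason. A difference at a peak of low level rests on few reads, as in the 5hmC peaks of Eomes and Dll3 with under 4 normalized reads in PP. Losses can rest on few reads in neurons. Among the 5mC peaks lower from PP to neurons, the fewest were 5.69 (47.6 kb upstream of Insm1), 7.77 (4843 bp upstream of Btg2), 8.55 (inside Eomes), and 9.97 (inside Dll3). The others had 11.7 to 36.2 normalized reads in neurons. Of the 8 5mC peaks lower in neurons than in PP, 2 were at or above the median level, and both belonged to Btg2.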

Other observations

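Relatives of the 5 genes by family were also examined, of which 12 of 13 had a peak. Among them, 6 were expressed most in DP and 5 were at least 2-fold higher in DP than in PP. The 4 with the largest difference were Insm2, a paralog of Insm1 (4.93, from a value of 2.2), Tbr1, a T-box factor of cortical neurons (3.92), Dll4, a Notch ligand (3.33), and Gadd45a (1.497). Of their 25 5hmC peaks, 0 were higher and 1 (4%) lower from PP to DP, against 11.2% and 4.68% of all peaks. From PP to neurons, 5 (20%) were higher and 3 (12%) lower, against 22.1% and 7.71% of all peaks, and 4 of the 5 belonged to Btg1 (named after its values were seen), an antiproliferative gene of the family of Btg2 with 12 5hmC peaks and an expression of 8771, 7964, and 3930.1 in the order PP, DP, and neurons. Of their 18 5mC peaks, 5 (27.8%) were lower from PP to neurons and 0 higher, against 10.2% and 5.00% of all peaks, including 3 of the 7 of Btg1.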
